A study of Mus musculus with 96 samples.

Results

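The 7 mature miRNAs described here are the arms of 4 hairpins that are known for their induction in inflammation: mmu-miR-155-5p and mmu-miR-155-3p, mmu-miR-146a-5p and mmu-miR-146a-3p, mmu-miR-146b-5p and mmu-miR-146b-3p, and mmu-miR-147-3p, written below without the species prefix. They were found by name among the 1978 mature miRNAs listed in every library, of which 1561 had at least 1 count somewhere in the series. The data are small RNA-seq counts from the mouse heart in the course of acute myocardial infarction (AMI). In all, 4 cell types were isolated at each of 6 time points, giving 24 groups of 4 libraries and 96 libraries in all. The time points were D0, from male C57Bl/6J mice that had no operation, and D1, D3, D7, D14 and D28 after permanent ligation of the left anterior descending artery. Cardiomyocytes (CMs) were recovered by centrifugation, hematopoietic cells (HCs) with beads against CD45, endothelial cells (ECs) with beads against CD144, and fibroblasts (FBs) by adhesion to plastic. A library holds the pooled RNA of 3 mice (of 2 if a sample was lacking), so the p-values measure the spread between pools. Per the study's methods the cell types of a day were taken from the same mice, so their libraries are not independent, and the fits across cell types take no account of it.

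In a miRNA hairpin, either arm can be cut out and loaded into an Argonaute protein, where the seed near its 5′ end pairs with target mRNAs and lowers their output. The genes of miR-155 and miR-146a are known targets of NF-κB signalling downstream of Toll-like receptors. miR-155 is known to promote inflammatory signalling, among other routes through repression of Socs1 and Inpp5d (Ship1), while miR-146a and miR-146b are known as brakes on the same pathway through Traf6 and Irak1. miR-147 is induced by Toll-like receptor ligands in macrophages.

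The mature sequences are shown because the 5p arms of miR-146a and miR-146b share a seed and can be told apart only by their 3′ ends. The sequences are those of RefSeq on GRCm38.p6, read 5′ to 3′, with the seed (bases 2 to 8) in capitals.

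miR-155-5p: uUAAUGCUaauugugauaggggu
miR-146a-5p: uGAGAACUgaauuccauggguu
miR-146b-5p: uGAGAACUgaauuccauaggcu
miR-155-3p: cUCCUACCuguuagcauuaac
miR-146a-3p: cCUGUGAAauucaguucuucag
miR-146b-3p: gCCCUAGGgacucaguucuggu

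miR-146a-5p and miR-146b-5p have the same seed, GAGAACU, and the same base at 20 of 22 positions. Counted from 1 at the 5′ end of miR-146a-5p, the differences are G18A and U21C. They stand in capitals in the pair below, outside the seed.

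miR-146a-5p: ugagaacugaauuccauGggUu
miR-146b-5p: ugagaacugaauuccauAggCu

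The 3p arms of these hairpins, compared base by base from the 5′ end, have the same base at 4 of 22 positions. With an offset of 1 base they share a stretch of 8 bases, ucaguucu, at positions 11 to 18 of miR-146a-3p and 12 to 19 of miR-146b-3p. No other mature mouse miRNA in the RefSeq table had the seed of miR-155-5p, miR-155-3p, miR-146a-3p or miR-146b-3p. The hairpin of miR-155 lies at chr16:84714140-84714204 (GRCm38.p6, plus strand), in an exon of the long noncoding RNA gene Mir155hg in the GENCODE M21 annotation. The hairpin of miR-146a lies at chr11:43374397-43374461 (minus strand), with no other annotated gene over it. The hairpin of miR-146b lies at chr19:46342762-46342870 (plus strand), in an intron of a transcript of Mfsd13a on the same strand. The hairpin of miR-147 lies at chr2:122640803-122640881 (plus strand), in an exon of the protein-coding gene AA467197 and within the untranslated region of some of its transcripts.

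Library totals ranged from 18286 to 65588543 mature miRNA counts. The shallowest library, replicate 3 of HC D0, had 18286 counts, so that 3 counts, the upper limit that a count of 0 allows, correspond to 164 CPM there. CPM are the counts of a miRNA scaled to 1000000 mature miRNA counts of the library. Cell types were prepared in separate batches with different RNA inputs, so cell type and batch cannot be told apart. The cardiomyocyte miRNAs miR-1a, miR-133a, miR-208a and miR-499 made up 603382 to 709040 CPM in CM D0, and were also present at 75957 to 134289 CPM in EC D0 and at 85776 to 132287 CPM in HC D0.

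Changes from D0 were tested within each cell type with edgeR's quasi-likelihood test on counts scaled by TMM, which sets the bulk of miRNAs level between libraries. A call is an adjusted p under 0.05, with the Benjamini-Hochberg adjustment taken over all miRNAs tested in that cell type. Low counts kept some arms out of the test, so that 7 members were tested in HC, 6 in FB, 5 in CM and 4 in EC. In bulk samples such as these, fewer cells of a type and less RNA per cell cannot be told apart.

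Fibroblasts had the broadest response, and all their calls were increases. At D1, 3 of 6 members were higher than at D0, as were 5.86% of all 563 miRNAs tested. At D3 and again at D7, 5 of 6 were higher, against 22.9% and 24.5% of all. On D14 there were 4 higher (14.4% of all), and on D28 still 2 (4.8% of all). These daily shares in FB count increases only, while those of the other cell types below count calls in either direction. Of all 563 miRNAs in FB, 129 were higher and 113 lower at D3, and 138 were higher and 119 lower at D7. Over all days together, 6 of 6 members changed in FB (68.2% of all).

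In HC, members moved in both directions. At D1, 3 of 7 were higher and 2 lower (54.3% of 608 miRNAs called in either direction), and at D3, 1 was higher and 3 were lower (59%). At D7, 2 were higher and 1 was lower (49.5%), while on D14 and D28 the only call was 1 increase, of miR-147-3p (28.1% and 24%). Over all days, 5 of 7 changed (73.5%). Over the 5 days the HC calls were 8 higher and 6 lower, against 16 higher and 3 lower with the library size in place of TMM. The share of members called in HC was near the share of all miRNAs called at the early days.

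In EC, 0 of 4 members were called at D1 by edgeR, as were 0% of all 421 miRNAs, of which 17 had an unadjusted p under 0.05. DESeq2 called 1 member there, miR-147-3p. At D3, 2 were higher (17.6% of all called), on D7 and D14 1 was higher (22.6% and 14.5%), and on D28 1 was higher and 1 lower (47%). Over all days, 3 of 4 changed in EC (58.2%). In CM, 0 of 5 were called at D1 by edgeR and by DESeq2, while 25% of all 484 miRNAs were. At D3, 1 was higher (55.2%), on D7 1 was higher and 2 were lower (69%), on D14 2 were lower (67.1%), and on D28 0 were called by either tool (54.3%). Over all days, 2 of 5 changed in CM (73.8%). The CM calls against D0 were 2 higher and 4 lower, against 20 higher and 0 lower with the library size in place of TMM.

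miR-147-3p was close to absent before infarction and rose in every cell type. In HC D0 it stood at 2.19, 1.09, 0 and 1.29 CPM in the 4 libraries, the 0 being that of the shallow replicate 3. At HC D1 it stood at 55.4, 37.4, 36.3 and 43.6 CPM, and at HC D3 at 46.6, 45.8, 46.5 and 84.7 CPM. Every library of D1 and D3 lay far above the 3 deep libraries of D0, and replicate 4 of D3 lay above its 3 neighbours. The 0 of replicate 3 of D0 allows up to 164 CPM, so that library cannot be ranked.

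Against D0, miR-147-3p in HC was higher at D1 by 4.39 ± 0.33 on the log2 scale (SE, adjusted p = 1.7e-10) and at D3 by 4.65 ± 0.34 (adjusted p = 4e-11). It then declined without reaching the D0 level. The 4 libraries gave 38.6, 27.9, 37.9 and 37.8 CPM at D7, 18.2, 31.9, 21.8 and 11.5 CPM at D14, and 4.01, 8.22, 7.19 and 7.08 CPM at D28. The D28 libraries were all above the deep libraries of D0, and the change from D0 was 1.81 ± 0.31 on the log2 scale (adjusted p = 4.1e-05). They were all below D3, by -2.83 ± 0.27 (adjusted p = 3.5e-09), in a comparison that called 55.1% of all miRNAs, with 2 members higher and 1 lower at D28. Without replicate 3 of HC D0, the D3 increase of miR-147-3p was 4.65 on the log2 scale.

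In EC, miR-147-3p stood at 0.781, 1.34, 0.782 and 0.95 CPM at D0 and at 32.2, 28.7, 44.7 and 33.5 CPM at D3. The increase at D3 was 5.11 ± 0.55 on the log2 scale (adjusted p = 6.7e-08), and the D3 libraries were all above those of D0. At EC D1 the libraries gave 8.43, 2.19, 2.76 and 6.91 CPM, all above D0 in level, with a difference of 2.34 ± 0.61 (adjusted p = 0.091). The 4 libraries of EC D1 held 12, 10, 2 and 17 counts, so depth limits this value.

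At EC D7, miR-147-3p was still higher than at D0, by 3.46 ± 0.54 (adjusted p = 1.1e-05). At D14 the difference was 2.00 ± 0.58 (adjusted p = 0.017), a call that was lost without replicate 3 of D0 or without replicate 1 or 3 of D14, with an adjusted p of up to 0.096. At EC D28 the libraries gave 3.8, 0, 6.29 and 0.512 CPM from at most 4 counts each. The EC D28 level overlapped with D0, and was below D3 by -4.49 ± 0.64 (adjusted p = 3.8e-06), in a comparison with 1 member higher, 2 lower and 49.9% of all miRNAs called.

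In FB, miR-147-3p was called at D3, D7 and D14. Its libraries stood at 0.677, 0, 0.629 and 0.468 CPM at D0, at 4.39, 5.34, 4.05 and 2.49 CPM at D3, and at 4.81, 2.87, 4.01 and 6.48 CPM at D7. The D3 and D7 libraries did not overlap with D0, and the increases were 2.51 ± 0.41 (adjusted p = 2.1e-05) and 2.82 ± 0.41 (adjusted p = 7e-06) on the log2 scale. At FB D1 the difference was 0.30 (adjusted p = 0.71), and at FB D28, where the libraries overlapped with D0, it was 0.62 (adjusted p = 0.50). FB D28 was again below D3, by -1.89 ± 0.36 (adjusted p = 0.00015), where 4 members were lower, 0 were higher and 41.6% of all miRNAs were called.

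In CM, the 4 libraries of D0 held 0, 0, 0 and 1 counts of miR-147-3p, while those of D3 held 37, 67, 34 and 47 counts, or 3.42, 3.70, 2.41 and 4.81 CPM. Over the summed libraries this is 185 counts against 1, a ratio of 188 with an exact 95% interval of 33.4 to 7474 that covers counting error only. The CM D7 libraries held 9, 20, 5 and 33 counts, and both days were called higher than D0 (adjusted p = 9.6e-05 and 0.012). The other arm, miR-147-5p, had 79 counts over the D3 libraries and 0 over those of D0, which is at least 26.8-fold higher against a floor of 3 counts over the group.

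The difference in timing of miR-147-3p between cell types was tested as the change in HC minus the change elsewhere, in 1 fit over all libraries. At D1 the increase in HC exceeded that in EC by 2.10 ± 0.70 (adjusted p = 0.033) and that in FB by 3.79 ± 0.67 (adjusted p = 1.6e-05). The first of these comparisons called 15.3% and the second 19.8% of all 712 miRNAs tested. At D3 the value for HC minus EC was -0.40 ± 0.64 (adjusted p = 0.73), while HC still exceeded FB by 1.95 ± 0.64 (adjusted p = 0.016). For CM, with 1 count at D0, the same difference at D3 was -1.48 ± 1.41 (adjusted p = 0.43), too wide an error to set CM apart from HC.

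**Figure D1:**
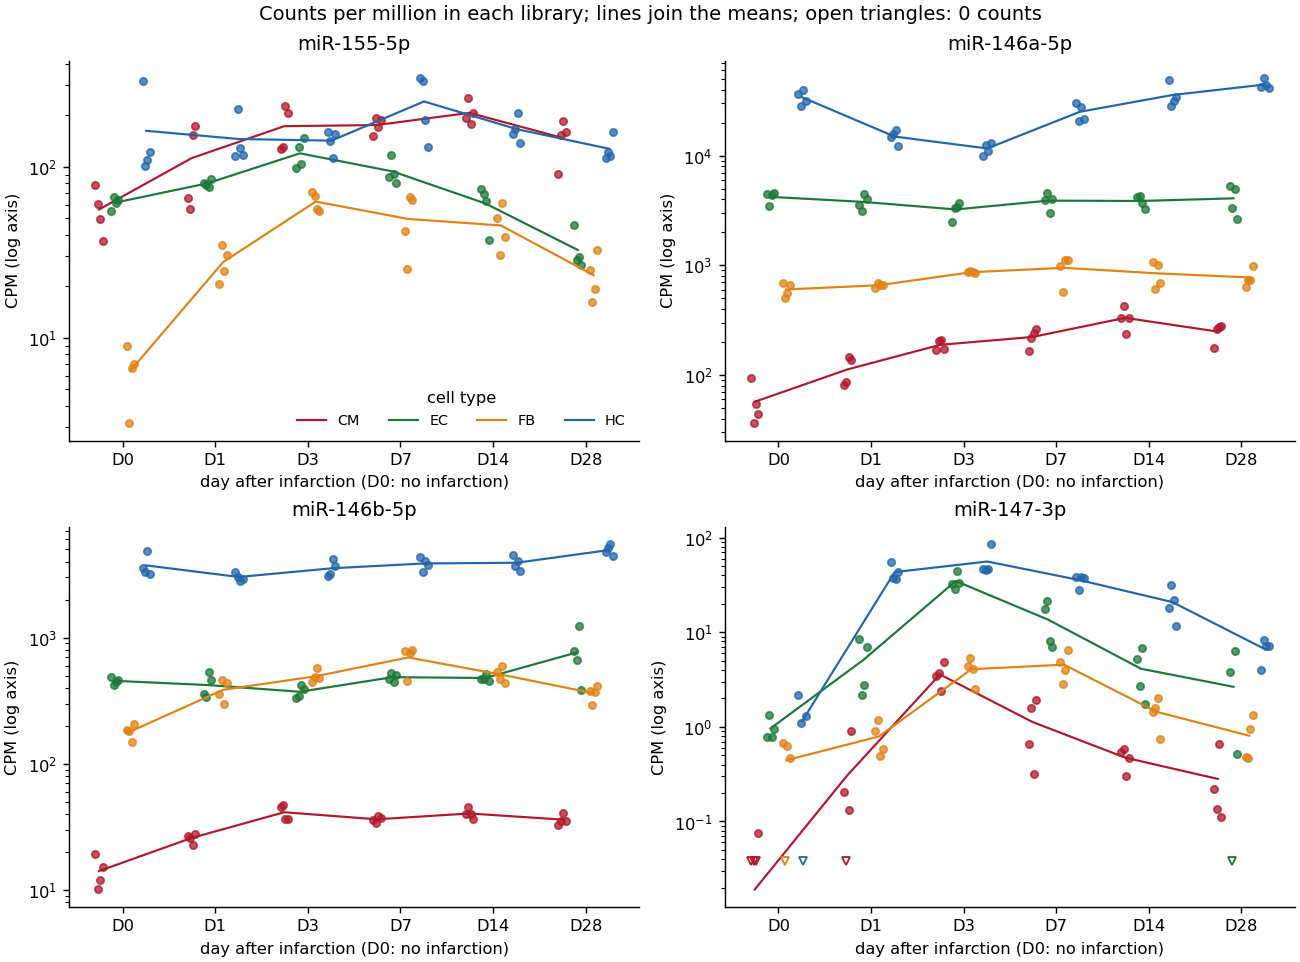
Levels of the 4 leading arms, in CPM on a log axis, against day after infarction for each cell type. Points are single libraries and lines join the group means. miR-147-3p stood at or under 2.19 CPM in every D0 library except the shallow replicate 3 of HC D0, whose 0 allows up to 164 CPM. It reached 84.7 CPM in HC at D3.

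Because leukocytes reach the infarcted heart in these days, the leukocyte miRNAs miR-142a-3p, miR-142a-5p, miR-223-3p and miR-223-5p were measured in each cell type beside the members. Their summed level in EC was 6.65 to 25.8 CPM at D0 and 17.1 to 31.0 CPM at D3, against 4925 to 6353 CPM in HC D0 and 13350 to 23270 CPM in HC D3. In EC, 1 of the 3 leukocyte markers tested was higher at D3. No marker of the 4 was at 0 throughout a group.

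Set against HC of the same day, EC D3 held 62.2% of the miR-147-3p level and 0.133% of the miR-142a level. Unlike miR-142a, the lymphocyte miRNA miR-150-5p stood at overlapping levels in EC and HC at D0 and at D3. Its means were 2372 CPM in EC and 2733 CPM in HC at D0. At D3 they were 2157 CPM in EC, 2167 CPM in HC and 159 CPM in FB. FB D3 held 7.27% of the HC level of miR-147-3p and 0.540% of that of miR-142a, and 0 of the 4 leukocyte markers were higher in FB at D3. The ratio of miR-147-3p to miR-142a in EC was higher at D3 than at D0 by 4.19 on the log2 scale, with no overlap between libraries. Its p was 0.0286 in an exact two-sided permutation test, the smallest p that 4 against 4 libraries allow (adjusted p = 0.095 over 20 comparisons). The part of leukocyte RNA in the EC and FB values was not tested.

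In CM the leukocyte markers rose in the days in which miR-147-3p did. Their sum went from 0.918 to 2.28 CPM at D0 to 26.9 to 66.6 CPM at D3 and 34.2 to 94.6 CPM at D7, and 4 of 4 were called higher at D1 and at D3. CM D3 held 6.41% of the HC level of miR-147-3p and 0.278% of that of miR-142a. In CPM, markers of some other cell types were also higher in the CM libraries at D3 than at D0, while those of mural cells were lower. The fibroblast miRNAs (miR-199a and miR-214) went from 36.5 to 114 CPM at D0 to 598 to 1252 CPM, the endothelial miR-126a from 4423 to 9789 CPM to 16967 to 22940 CPM, and the red cell miRNAs (miR-451a and miR-144) from 0.637 to 1.71 CPM to 11.6 to 19.6 CPM. The mural cell miRNAs (miR-143 and miR-145a) went from 22682 to 36325 CPM to 15782 to 21400.5 CPM. Cardiomyocyte miRNAs also moved in CPM. The means of miR-133a-3p, miR-208a-3p and miR-499-5p went from 391, 117 and 1200 to 3254, 716 and 8917 CPM. That of miR-1a-3p went from 657447 to 495722 CPM. The part of RNA from other cell types in the CM values was not tested.

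**Figure D2:**
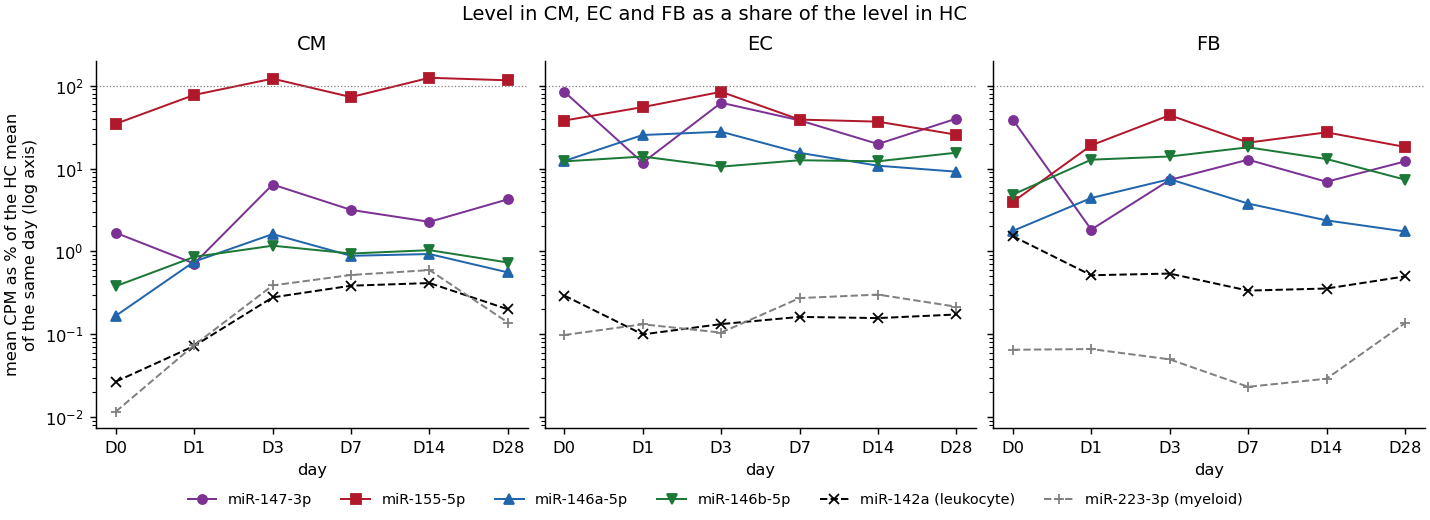
Level of each leading arm and of the leukocyte miRNAs miR-142a and miR-223-3p as a percent of the HC level of the same day, on a log axis, for CM, EC and FB. In EC at D3 miR-147-3p stood at 62.2% and miR-142a at 0.133% of the HC level.

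miR-155-5p, the guide arm of its hairpin, had its largest fold change in fibroblasts. In FB D0 its libraries gave 8.91, 3.16, 6.63 and 7.03 CPM. At D1 they gave 20.7, 35.1, 24.5 and 30.6 CPM and at D3 71.5, 67.6, 56.6 and 54.9 CPM. Every library after infarction lay above every library of D0, with a mean at D3 of 9.74 times the D0 mean.

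On the log2 scale, miR-155-5p in FB was higher by 1.84 ± 0.29 at D1 (adjusted p = 0.00022), by 2.87 ± 0.29 at D3 (adjusted p = 7e-08), by 2.64 ± 0.29 at D7 and by 2.70 ± 0.29 at D14. At D28 the libraries gave 25.0, 16.3, 19.3 and 32.5 CPM, still all above D0, by 1.89 ± 0.29 (adjusted p = 1e-04), and below D3 by -0.98 ± 0.27 (adjusted p = 0.005). The ratio of miR-155-5p to miR-142a in FB was also higher than at D0 on each of the 5 days, by 1.90 to 4.22 on the log2 scale (adjusted p = 0.044 in exact permutation tests, the smallest reached). The passenger arm miR-155-3p reached at most 2.11 CPM in any library. In FB it held 1, 0, 0 and 2 counts at D0 and 14, 17, 7 and 7 counts at D3, an increase of 3.30 ± 0.79 on the log2 scale (adjusted p = 0.0015).

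In EC, miR-155-5p rose early and ended low. Its libraries gave 55.1, 66.7, 61.4 and 63.6 CPM at D0, 98.8, 131, 104 and 146.8 CPM at D3, and 45.7, 28.4, 29.9 and 26.6 CPM at D28. The D3 libraries all lay above and the D28 libraries all below those of D0. The changes were 0.94 ± 0.23 at D3 (adjusted p = 0.0052) and -0.90 ± 0.25 at D28 (adjusted p = 0.0038) on the log2 scale. Between D3 and D28, miR-155-5p in EC differed by -1.84 ± 0.25 (adjusted p = 2.3e-06).

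In HC, where miR-155 is best known, miR-155-5p showed no increase that passed the test on any day. Its libraries gave 317, 102, 109 and 122 CPM at D0, 159, 141.98, 113 and 156 CPM at D3 and 329.7, 318, 188 and 130.3 CPM at D7. Replicate 1 of D0 stood far above its neighbours, and the D0 and later libraries overlapped on all days. Its call was at D3, -0.81 ± 0.30 (adjusted p = 0.023), and it was lost when any 1 of 6 libraries was left out, with a log2 change of -1.04 to -0.20. The passenger arm miR-155-3p was called higher in HC at D1, at means of 0.194 CPM at D0 and 1.09 CPM at D1. The D1 libraries held 5 to 10 counts of it. Without the shallow replicate 3 of D0, its change was 1.61 on the log2 scale (edgeR, adjusted p = 0.028).

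The response of miR-155-5p in HC thus differed from that in FB and EC by the test of the difference itself. HC minus FB was -2.76 ± 0.40 on D1 and -3.87 ± 0.41 on D3 (adjusted p = 3.6e-12). On D7, D14 and D28 it was -2.70 ± 0.40, -3.04 ± 0.41 and -2.51 ± 0.40, the last 4 comparisons calling 27.4%, 13.6%, 8.01% and 4.35% of all miRNAs. HC minus EC at D3 was -1.67 ± 0.40 (adjusted p = 0.00062), where 31.6% of all were called.

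In CM, the direction of miR-155-5p, miR-146a-5p and miR-146b-5p turned with the scaling of the libraries. In CPM, miR-155-5p stood at 78.6, 60.3, 49.7 and 36.7 at D0 and at 192, 252, 177 and 206 at D14, with no overlap and every D14 library higher. With TMM scaling, by contrast, it was lower at D14 by -0.74 ± 0.23 (adjusted p = 0.0081), against 1.88 higher with the library size alone. In CM D0, miR-1a-3p alone held a mean of 657447 CPM, and TMM factors there were 0.289 to 0.357 against 0.491 to 2.04 at later days, so that TMM moved all CM changes by -1.19 to -2.61 on the log2 scale.

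With TMM, the median change of all 484 miRNAs tested in CM was 0.20 at D1 and 0.44 at D3. The change of miR-146a-5p at D3 was -0.19 ± 0.24 with TMM (adjusted p = 0.51), below that median, and 1.72 with the library size alone. For miR-146b-5p in CM the change was -0.90 ± 0.30 at D7 (adjusted p = 0.0098) and -1.07 ± 0.30 at D14 (adjusted p = 0.0032) with TMM, and 1.36 and 1.51 with the library size alone. The increase of miR-147-3p in CM at D3 held its direction under both.

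**Figure D3:**
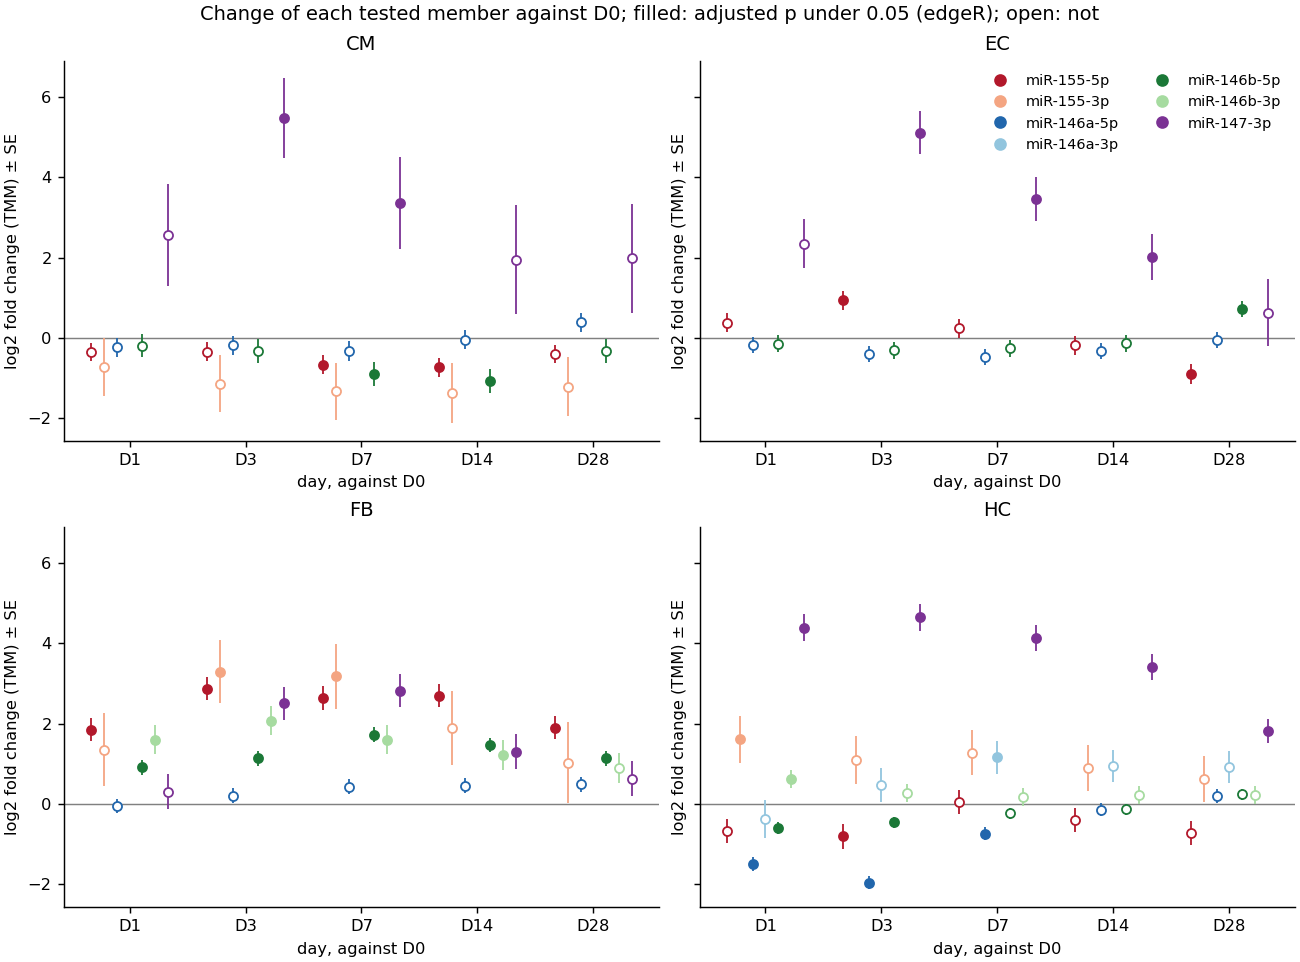
Change from D0 of each tested member by cell type and day, as log2 fold change from edgeR with TMM scaling, with bars for the standard error. Filled points have an adjusted p under 0.05. miR-147-3p was higher in all 4 cell types at D3, from 2.51 in FB to 5.48 in CM, while miR-146a-5p was lower by 1.96 in HC.

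miR-146a-5p was the most abundant member and fell in HC in the first days. Its libraries gave 36451, 28549, 39757 and 31504 CPM at HC D0, 14791, 15629, 17099.6 and 12115 CPM at D1, and 9945, 12401, 10990.5 and 13129.9 CPM at D3. The D1 and D3 libraries all lay below those of D0. The change was -1.51 ± 0.17 at D1 (adjusted p = 7.4e-08) and -1.96 ± 0.17 at D3 (adjusted p = 5.2e-10) on the log2 scale.

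At HC D7 miR-146a-5p gave 30342, 20534, 27712 and 21750.2 CPM, a range that overlapped with D0, with a change of -0.75 ± 0.17 (adjusted p = 0.00056). By D14 it was back at the level of D0 within its error (-0.15 ± 0.16, adjusted p = 0.54). At D28 the libraries gave 41851, 50651, 44290.4 and 41279.7 CPM, all above D0 in CPM, with a change of 0.20 ± 0.16 (adjusted p = 0.42). From D3 to D28 it rose by 2.16 ± 0.17 on the log2 scale. The 4 leukocyte markers in HC went from 4925 to 6353 CPM at D0 to 17306 to 24462 CPM at D1, with 3 of 4 called higher. Markers of some other cell types also went down in HC between D0 and D3. Between D0 and D3 the endothelial markers went from 54905 to 91837 CPM to 14781 to 21541 CPM, the cardiomyocyte markers from 85776 to 132287 CPM to 38493 to 64736 CPM, and the mural cell miRNAs (miR-143 and miR-145a) from 21694.5 to 32350 CPM to 4768 to 7316 CPM. At D28 the endothelial markers stood at 19379 to 23996 CPM, the cardiomyocyte markers at 26273 to 42688 CPM and the mural cell miRNAs at 7132 to 9464 CPM. The fibroblast markers went from 4229 to 4533 CPM at D0 to 2362 to 3431 CPM at D3, and to 11880 to 18739 CPM at D28. The red cell markers went from 54.7 to 144 CPM at D0 to 133 to 410 CPM at D3. The part of other cell types in the course of miR-146a-5p was not tested.

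Outside HC, edgeR with TMM called miR-146a-5p on no single day, while DESeq2 called it lower in EC at D3 (adjusted p = 0.041) and D7 (adjusted p = 0.043) and higher in FB at D7 (adjusted p = 0.026). With the library size alone it was called higher in FB at D3 and D7 and in CM on all 5 days. In EC it gave 4428, 3495, 4335 and 4557 CPM at D0 and 2463, 3355, 3376 and 3716 CPM at D3, an overlap with a difference of -0.41 ± 0.20 (adjusted p = 0.16). In FB it gave 683, 500.1, 559.7 and 663 CPM at D0 and 861, 887, 866 and 841 CPM at D3, all higher in CPM, with a difference of 0.20 ± 0.19 (adjusted p = 0.42). Over all days together, miR-146a-5p in FB passed edgeR's test (adjusted p = 0.032).

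The change of miR-146a-5p in HC differed from that in each other cell type at D1 and D3. HC minus FB was -1.65 ± 0.28 at D1 and -2.29 ± 0.28 at D3 (adjusted p = 7.7e-10). HC minus EC was -1.22 ± 0.28 at D1 and -1.42 ± 0.28 at D3 (adjusted p = 5.1e-05), and HC minus CM was -1.59 ± 0.28 and -2.26 ± 0.29. The comparisons with CM called 26.8% and 39.5% of all miRNAs. HC minus CM was -0.74 ± 0.28 at D7 (adjusted p = 0.028, 41% of all called), a call that was lost in 9 of the 16 fits that left out 1 of its libraries: replicates 2, 3 and 4 of CM D0, 3 of CM D7, 1, 2 and 4 of HC D0, and 2 and 4 of HC D7 (adjusted p of up to 0.15).

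miR-146b-5p shares the seed of miR-146a-5p but followed another course. In FB its libraries gave 185, 181, 149 and 208 CPM at D0, 444, 485, 572 and 475 CPM at D3 and 778, 457, 758 and 791 CPM at D7. All libraries after infarction were above D0, by 0.91 ± 0.18 (D1), 1.14 ± 0.18 (D3), 1.72 ± 0.19 (D7, adjusted p = 7.8e-08), 1.47 ± 0.19 (D14) and 1.13 ± 0.18 (D28, adjusted p = 0.00024) on the log2 scale. Its libraries at D28, from 292 to 417 CPM, all lay below those of D7, while the difference between D28 and D3 was 0.00 ± 0.18 with TMM (adjusted p = 0.99) and -0.45 with the library size alone (adjusted p = 0.046). Its partner arm miR-146b-3p rose with it in FB, from 11, 1, 10 and 13 counts at D0 to 60, 49, 37 and 72 counts at D3, by 2.07 ± 0.36 (adjusted p = 4.9e-05), and was lower again at D28 than at D3 by -1.17 ± 0.31.

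In HC, miR-146b-5p gave 3528, 3336, 4867 and 3184 CPM at D0 and 3321, 3043, 2790.3 and 2921 CPM at D1. The ranges overlapped, and the change was -0.60 ± 0.14 (adjusted p = 0.00084). At D3 it was -0.46 ± 0.14 (adjusted p = 0.0068), a call that was lost without any 1 of 4 libraries. TMM moved the HC changes by -0.32 at D1 and -0.42 at D3 on the log2 scale. In mean CPM, miR-146b-5p stood at 0.81 (D1) and 0.95 (D3) times its D0 level. Without the shallow replicate 3 of D0, it stood at 0.90 and 1.06 times that level. At D28 the libraries gave 4759, 5128, 5467 and 4395 CPM, higher than at D3 by 0.69 ± 0.14 (adjusted p = 0.00017). In EC, miR-146b-5p was called only at D28, where the libraries spread from 387 to 1229 CPM against 418 to 488 CPM at D0 and the change was 0.72 ± 0.21 (adjusted p = 0.0063). Without replicate 3 of EC D28, the highest, it was 0.52 on the same set of miRNAs (adjusted p = 0.029), and 0.30 when the filter on low counts was also applied anew (adjusted p = 0.20). The call was also lost with no filter on low counts (0.45, adjusted p = 0.33) and with only D0 and D28 fitted (adjusted p = 0.096).

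The difference of HC from other cell types was also tested for miR-146b-5p. HC minus CM was 0.78 ± 0.30 at D14 (36.4% of all called), a direction that turned with the library size alone (-1.43). This call was lost without replicate 1 or 4 of CM D0 or replicate 3 or 4 of CM D14 (adjusted p of up to 0.070). HC minus FB was -1.71 ± 0.30 at D1, -1.73 ± 0.30 at D3, -1.96 ± 0.30 at D7 (adjusted p = 3e-07) and -1.49 ± 0.30 at D14. For miR-146b-3p the same difference at D3 was -1.96 ± 0.54 (adjusted p = 0.0035). miR-146a-3p was measurable only in HC, where it held 520 counts over 24 libraries, and it was at 0 in 18 of 24 libraries of each other cell type. Its HC means were 0.626 CPM at D0, 1.70 CPM at D3, 2.50 CPM at D7 and 1.98 CPM at D28. It was called higher in HC at D7 only. Without the shallow replicate 3 of D0, that change was 1.16 on the log2 scale (edgeR, adjusted p = 0.023).

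The balance of the miR-146 5p arms is a ratio within each library, which no scaling moves. In HC, the ratio of miR-146a-5p to miR-146b-5p was 9.24 ± 1.04 (SD, n = 4) before infarction and then, in the order of the days from D1 to D28, 4.97 ± 0.88, 3.32 ± 0.53, 6.46 ± 0.54, 9.07 ± 1.59 and 9.04 ± 0.77. In FB it was 3.35 ± 0.47 before infarction, followed over the same days by 1.75 ± 0.33, 1.76 ± 0.18, 1.35 ± 0.11, 1.64 ± 0.29 and 2.15 ± 0.38. In both cell types the early libraries lay below those of D0 without overlap.

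In EC the ratio was 9.23 ± 0.66 at D0 and 8.67 ± 1.18 at D3, and only the D28 libraries, at 5.68 ± 1.39, all lay below those of D0. In CM it went the other way, from 3.95 ± 0.91 at D0 to 8.17 ± 1.55 at D14. Of 20 comparisons with D0, 11 reached 0.0286, the smallest p of the exact two-sided permutation test with 4 against 4 libraries. After adjustment over the 20 these stood at 0.0519, so 0 passed the threshold. Between cell types on the same day, 25 of 36 comparisons passed (adjusted p = 0.0411), with FB below EC by 2.29 on the log2 scale at D3.

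**Figure D4:**
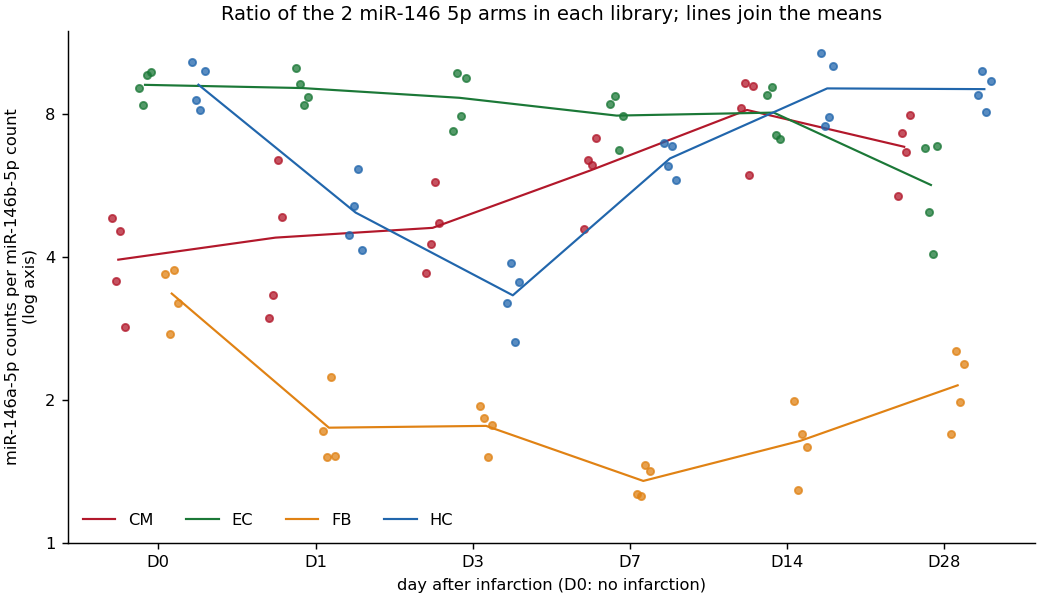
Ratio of miR-146a-5p to miR-146b-5p counts in each library, on a log axis, by day and cell type. The HC means went from 9.24 at D0 to 3.32 at D3 and back to 9.04 at D28, and the FB means stayed below those of HC on every day.

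The levels of the arms that share a seed were also summed. In HC, miR-146a-5p and miR-146b-5p together stood at 37794 ± 5657 CPM at D0 (SD, n = 4), 15152 ± 1576 CPM at D3 and 49455 ± 4563 CPM at D28. In FB the sum was 782 ± 101 CPM at D0 and 1643 ± 414 CPM at D7, where miR-146b-5p, the smaller arm, went from a mean of 181 to 696 CPM and miR-146a-5p from 601 to 947 CPM. In EC it stayed between 3600.1 and 4842 CPM in the day means.

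A further table of the same libraries counts reads per hairpin, and for miR-146b in HC and EC it moved unlike miR-146b-5p. How reads were divided between the mature and the hairpin tables is not given in the sources used here. Hairpin counts are given on the CPM scale, over the mature total of the library. In HC the miR-146b hairpin stood at 3463, 3099, 3719 and 4253 at D0 and at 12921, 12625, 12876 and 11799.5 at D1, with no overlap. The increase was 1.40 ± 0.17 on the log2 scale (adjusted p = 2.3e-07), in a test that called 61.3% of all 475 hairpins tested in HC. On that day miR-146b-5p itself was lower by -0.60 ± 0.14 with TMM. The other arm, miR-146b-3p, was higher, at a mean of 17.8 CPM against 6.42 CPM at D0. Without the shallow replicate 3 of D0, the change of miR-146b-3p was 0.61 on the log2 scale (edgeR, adjusted p = 0.031).

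In EC the miR-146b hairpin stood at 77.4, 65.7, 63.8 and 82.6 at D0 and at 384, 417, 256 and 338 at D3, with every D3 library higher. The increase was 2.22 ± 0.27 (adjusted p = 6.2e-07), where 19.6% of all hairpins were called and miR-146b-5p was not called. In FB both rose, the hairpin by 3.05 ± 0.22 and miR-146b-5p by 1.14 ± 0.18 at D3. The hairpin test in FB called 43.2% of all at that day.

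Within a library, the ratio of miR-146b hairpin counts to the counts of its arms is again free of scaling. In HC its mean was 1.00 before infarction, 4.15 on D1 and 2.85 on D3, and then fell through 2.08 and 1.46 to 1.03 by D28. In EC it rose from 0.159 (D0) to 0.958 (D3) and was 0.190 by D28, and in FB 0.869, 3.58 and 1.103 on the same days. In CM it declined, from 3.42 at D0 to 1.05 at D28. The ratio differed from D0 at D1, D3 and D7 in HC, from D1 to D14 in EC and in FB, and from D3 to D28 in CM (adjusted p = 0.038 each, the smallest reached in exact permutation tests over 20 comparisons). This ratio was added after the data had been seen.

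**Figure D5:**
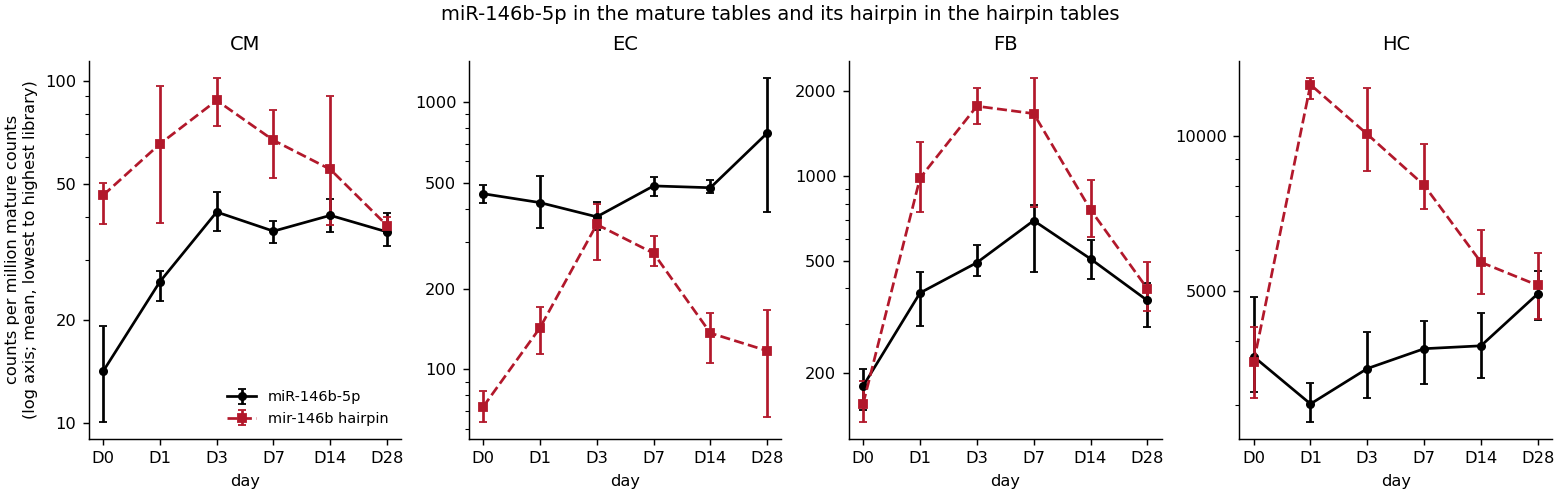
Levels of miR-146b-5p and of the miR-146b hairpin, both on the CPM scale over the mature total, by day and cell type. Lines join the group means, and bars run from the lowest to the highest library. In HC the hairpin mean went from 3633 at D0 to 12555 at D1 and 5126 at D28. The mean of miR-146b-5p in HC was 3729 CPM at D0, 3019 CPM at D1 and 4937 CPM at D28.

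The other hairpins were compared in the same way. The miR-155 hairpin rose in FB by 4.03 ± 0.37 at D3, as miR-155-5p did by 2.87 ± 0.29. The miR-146a hairpin fell in HC by 1.49 at D1 and by 2.10 at D3 on the log2 scale, the D3 test calling 64.2% of all hairpins. The miR-155 hairpin in HC D3 stood at 0.04 ± 0.32 against D0 (adjusted p = 0.93), where miR-155-5p had its call of -0.81.

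The arms of the 4 hairpins were used very unequally. Over the 24 libraries of HC, the 3p arm held 0.347% of miR-155 counts (95% Wilson interval 0.300% to 0.400%), 0.0053% of miR-146a counts and 0.312% of miR-146b counts, but 44.3% of miR-147 counts (43.5% to 45.2%). In CM, EC and FB the 3p arm of miR-147 held 67.8%, 52.1% and 56.2%. Intervals cover counting error only.

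The ratio of the 5p to the 3p arm was tested over days with limma where both arms had a mean of at least 10 counts. For miR-146b it changed over all days in FB (adjusted p = 0.0016) and HC (adjusted p = 0.021), comparisons that called 49.7% and 15.8% of all hairpins tested. In FB the ratio was lower at D3 by -0.88 ± 0.27 (adjusted p = 0.020) and in HC at D1 by -0.93 ± 0.26 (adjusted p = 0.022), where 25.9% and 15.8% of all hairpins were called. In HC the call over all days was lost without replicate 3 or replicate 4 of D1. For miR-146a in HC the ratio at D3 was -1.36 ± 0.75 (adjusted p = 0.22), and -2.53 (adjusted p = 0.0001) without the shallow replicate 3 of D0, which held 0 counts of miR-146a-3p. For miR-147, no change over all days was called in EC (adjusted p = 0.82) or HC (adjusted p = 0.37).

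The order of cell types differed between members. miR-146a-5p was highest in HC, then EC, then FB, then CM on all 6 days, and neighbours in this order did not overlap. miR-146b-5p was also highest in HC, at 3729 ± 772 CPM at D0, and at D3 FB (494 ± 55.0 CPM) stood above EC (372 ± 42.2 CPM) without overlap. miR-147-3p had the order HC, EC, FB at D1, D3 and D7, and the libraries of these cell types did not overlap on those days.

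For miR-155-5p the order at D0 was HC (163 ± 103 CPM), EC (61.7 ± 4.92 CPM), CM (56.3 ± 17.7 CPM) and FB (6.43 ± 2.40 CPM), where EC and CM overlapped. With TMM over all libraries, CM stood above HC at D0 by 1.67 ± 0.29 on the log2 scale (57.3% of all miRNAs called), and with the library size alone below it by -1.64, so the place of CM in the order turns with the scaling. By D28, EC (32.6 ± 8.77 CPM) and FB (23.3 ± 7.12 CPM) overlapped.

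Across the 24 HC libraries, the miRNAs whose log2 CPM followed the members most closely were ranked by Pearson's r. The CPM were scaled by TMM here. The ranking is a description, since all points share a cell type and its scaling. miR-21a-3p (r = 0.894), miR-669a-3p and miR-669o-3p (both 0.879) were nearest to miR-147-3p. miR-203b-5p (0.944), miR-125b-5p (0.941) and miR-152-3p (0.931) were nearest to miR-146a-5p. miR-125b-1-3p (0.890), miR-203b-5p (0.871) and miR-26a-5p (0.832) were nearest to miR-146b-5p, and miR-141-3p (0.707), miR-150-5p (0.699) and miR-3535 (0.693) to miR-155-5p. Among the members, r was 0.854 between miR-146a-5p and miR-146b-5p and -0.739 between miR-146a-5p and miR-147-3p. Without the shallow replicate 3 of D0, miR-125b-2-3p (0.956) came nearest to miR-146a-5p and miR-200a-3p (0.822) to miR-155-5p.

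Over the 24 group means, which differ in cell type and in library scaling, other miRNAs came nearest. These values were scaled by TMM too, whose factors over all libraries were 0.111 to 0.796 in CM and 1.37 to 2.50 in HC. For miR-155-5p these were miR-133a-5p (r = 0.913), miR-499-5p (0.898) and miR-208a-3p (0.894), all known as miRNAs of cardiac muscle. For miR-146a-5p they were miR-1249-3p (0.932), miR-7115-5p (0.898) and miR-7043-3p (0.881), and for miR-146b-5p miR-501-3p (0.926), miR-7091-5p (0.914) and miR-7219-3p (0.886). For miR-147-3p they were miR-466b-3p, miR-466c-3p and miR-466p-3p, near-identical copies with the same r of 0.7955.

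The wider group of 24 miRNAs known from inflammation and macrophages moved in both directions. At D3, 11 of 23 tested were higher and 9 lower in HC, 7 and 10 of 22 in FB, 5 and 1 of 20 in EC, and 12 and 4 of 23 in CM. Of all miRNAs tested, 188 were higher and 171 lower of 608 in HC, 129 and 113 of 563 in FB, 65 and 9 of 421 in EC, and 154 and 113 of 484 in CM. The list median at D3 was 0.59 in HC against 0.02 for all miRNAs, -0.14 against 0.06 in FB, 0.04 against 0.11 in EC and 0.84 against 0.44 in CM, on the log2 scale. miR-21a-5p, known for its rise in injured and fibrotic tissue, went from 11708 ± 3863 CPM in FB D0 to 53892 ± 12048 CPM in FB D3 (1.87 ± 0.25 on the log2 scale) and rose in EC by 2.34 ± 0.44. miR-147-5p, the other arm of the miR-147 hairpin, rose in all 4 cell types, in HC from 1.16 ± 0.97 to 60.7 ± 6.19 CPM. miR-125a-5p was lower at D3 in HC by -2.76 ± 0.23, in FB by -1.19 ± 0.18 and in EC by -0.81 ± 0.29 (adjusted p = 0.048). miR-21a-3p rose in HC by 3.30 ± 0.32 and miR-125b-5p fell there by 2.42 on the log2 scale, and miR-181a-5p fell in FB by 1.05. In CM, miR-511-3p rose from 0.0238 ± 0.0476 to 5.69 ± 4.15 CPM at D3. With TMM, miR-10a-5p was lower in CM by -2.73 ± 0.50 and miR-99b-5p by -2.02 ± 0.37.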

How the data were processed

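The libraries were small RNA-seq libraries of 96 pools, trimmed with Trim Galore and run through the nf-core smrnaseq pipeline. Per the labels and the study's methods, reads shorter than 18 nt were removed and reads were aligned with Bowtie2 to miRBase 21 and counted with SAMtools, with mm10 as the genome. Versions of these tools are not given in the sources used here. The authors deposited 192 tables, a mature and a hairpin table for each library, whose values are raw counts without normalization.

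The study removed 1 small RNA library each of EC D28, HC D0 and FB D0 as outliers, but the labels do not name them, so all 96 were used here, and the library farthest from its neighbours in each of these 3 groups was left out as an alternative. Groups were taken from the labels. Members were found by name, and CPM were counts over the sum of all mature counts. Within each cell type, edgeR 4.0.16 (filterByExpr, TMM, quasi-likelihood F test, 1 coefficient per group, R 4.3.3) was run over the 24 libraries, and 1 fit over 96 libraries gave comparisons between cell types. Low counts were dropped by filterByExpr, leaving 421 to 608 miRNAs. Arm ratios used limma 3.58.1 on log2 ratios with 0.5 added to each count. Within-library ratios used exact two-sided permutation tests (scipy 1.17.1), whose smallest p is 0.0286. p-values were adjusted by Benjamini-Hochberg. Correlations used log2 CPM scaled by TMM, with 0.5 added to the count. DESeq2 1.42.0, library sizes without TMM, no filter, a fit of only the compared days, a replicate block, other pseudocounts, miR-223-3p as reference and leaving out libraries were the alternatives. Scripts were tested on simulated counts. The members, lists and tests were chosen with earlier results of these data known. The text names all members, the cell type markers, the 3 miRNAs nearest to each of 4 leading arms by Pearson's r, and from the inflammation list the 2 largest calls in each direction at D3 in each cell type. The 4 libraries of a group never matched within sampling noise.

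Depth was 18286 to 65588543 counts, and values in HC D0 rest on 3 deep libraries and a shallow one. Counts are PCR reads, so intervals cover counting error only. Library input was 500 ng for CM, 50 ng for EC and 150 ng for FB and HC.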

Additional observations from a re-analysis of the deposited data

Results flagged for a closer look

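Of 107 groups of 4 libraries with a mean of at least 10 counts of a member, 6 held a library far from the other 3, past the 95% critical value of Dixon's ratio, where chance gives about 1 in 20 groups. In miR-155-5p these were replicate 1 of EC D28 (45.7 CPM against 26.6 to 29.9), replicate 1 of HC D0 (317 CPM against 102 to 122) and replicate 2 of HC D1 (219 CPM against 116 to 129). In miR-146b-5p it was replicate 2 of FB D7 (457 CPM against 758 to 791). In miR-147-3p these were replicate 4 of HC D3 (84.7 CPM against 45.8 to 46.6) and replicate 2 of HC D7 (27.9 CPM against 37.8 to 38.6).

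The change from D0 in HC differed from that in another cell type, by the test of the difference, in 25 comparisons. These are given here as HC minus the other on the log2 scale. The tests covered 7 members on 5 days, against each of CM, EC and FB. Of all 712 miRNAs, the comparisons with a share given above called 4.35% (HC minus FB at D28) to 41% (HC minus CM at D7). For miR-146a-5p the differences from CM were -1.59 at D1, -2.26 at D3 and -0.74 at D7, those from EC -1.22 at D1 and -1.42 at D3, and those from FB -1.65 at D1, -2.29 at D3 and -1.18 at D7. For miR-155-5p they were -0.93 from CM and -1.67 from EC at D3, and -2.76, -3.87, -2.70, -3.04 and -2.51 from FB at D1, D3, D7, D14 and D28. For miR-146b-5p they were 0.78 from CM at D14, and -1.71, -1.73, -1.96 and -1.49 from FB at D1, D3, D7 and D14. For miR-146b-3p the difference from FB at D3 was -1.96. For miR-147-3p they were 2.10 from EC at D1, and 3.79, 1.95 and 2.17 from FB at D1, D3 and D14. Comparisons with CM move with the scaling of CM.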

How the results depend on the processing

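Same-numbered libraries showed no shared deviation from their group means: across cell types on the same day the mean correlation was 0.0066. Within cell types it was -0.004 to 0.026, but the days hold different mice, so those values cannot show shared mice. Whether equal numbers mark the same mice is not given in the sources used here. With a replicate block, the calls against D0 were 6 in CM, 6 in EC, 19 in FB and 15 in HC, against 6, 6, 19 and 14 without it, and the calls over all days were 15 against 16. Over all libraries, a block of day and replicate number gave 23 calls against 25 for the change in HC minus the change elsewhere. Between cell types at D0 it gave 27 against 31. The calls lost were HC minus CM at D3 for miR-155-5p (adjusted p = 0.11) and HC minus FB at D14 for miR-147-3p (adjusted p = 0.058), and at D0 those of miR-146a-3p in EC minus FB and EC minus HC, miR-155-5p in EC minus HC and miR-147-3p in FB minus HC.

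The 6 calls in CM against D0 became 20 with the library size alone, 2 with no filter on low counts and 3 when only the 2 days compared were fitted. The 25 calls for the change in HC minus that elsewhere became 38 with the library size alone. The 2 calls of arm ratios over all days became 1 with a pseudocount of 5. When 1 library was left out they ranged from 1 to 3, with 1 without replicate 3 or replicate 4 of HC D1. The 25 calls of the miR-146a-5p to miR-146b-5p ratio between cell types became 0 without the farthest library of 3 groups, where 8 of 36 comparisons had fewer libraries and 20 of the other 28 reached the smallest p, 0.0286, giving an adjusted p of 0.0514; the adjustment needs 21 at that p. All 25 kept their sign when any 1 library was left out. The 13 calls of the ratio to miR-142a against D0 became 25 with miR-223-3p as reference.

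With the library size alone, directions turned in CM against D0 for miR-146a-5p (0.98, 1.72, 1.96 and 2.54 at D1, D3, D7 and D14), miR-155-5p (1.00, 1.62, 1.64, 1.88 and 1.39 from D1 to D28) and miR-146b-5p (0.87, 1.55, 1.36, 1.51 and 1.35). They also turned for miR-155-5p in CM minus EC at D0 (-0.13), CM minus HC at D0 (-1.64) and over days (-0.28), and for miR-155-3p in CM minus HC over days (-0.61). In the change of HC minus CM they turned for miR-155-5p at D7 (-1.18) and D14 (-1.95), and for miR-146b-5p at D7 (-1.30), D14 (-1.43) and D28 (-0.93).

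With the hairpin tables, directions turned for miR-155 in CM D7 (0.055) and HC D3 (0.040), and for miR-146b in EC D3 (2.22), EC D7 (1.71), EC D28 against D3 (-1.33), HC D1 (1.40), HC D3 (1.07), HC D7 (0.66) and HC D28 against D3 (-0.82). With miR-223-3p as reference, the ratios against D0 turned for miR-155-5p in EC D14 (-1.78) and HC D7 (0.048), and for miR-146b-5p in EC D14 (-1.65). The cause was not tested, except that TMM factors set CM D0 apart from later days.

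When 1 library was left out, calls against D0 ranged from 6 to 8 in CM, 5 to 7 in EC, 18 to 21 in FB and 13 to 16 in HC. In fits over all libraries, only the comparisons that contain the library left out were refitted. In HC, calls of miR-155-3p and miR-146b-3p at D1 and of miR-146a-3p at D7, and in FB those of miR-146b-3p and miR-147-3p at D14, were each lost without at least 1 library. Depth limits miR-155-3p, miR-146a-3p and the EC D28 and HC D0 values of miR-147-3p most.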
